A study of Mus musculus with 32 samples.

Results

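The proteasome genes of denervated GAS muscle, the gastrocnemius of the calf, were followed from RNA sequencing over 28 d. The members were taken by symbol, and all 40 were found among the 33397 genes of the table. They comprised 7 alpha-ring genes (Psma), 7 beta-ring genes (Psmb), 6 ATPase genes (Psmc) and 11 non-ATPase genes (Psmd) of the regulatory particle, 4 activator genes (Psme) and 5 assembly factor genes (Pomp and Psmg1 to Psmg4). The rule used names alone.

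The study transected the sciatic nerve of C57BL/6 mice and collected GAS muscles on 8 days (0, 1, 3, 5, 7, 14, 21 and 28 d). Each day had 4 samples, which makes 32. The 0 d samples served as the reference here, although their labels carry the nerve transection like those of every other time point. The study describes sham-operated mice as its controls, so what was done to the 0 d mice cannot be told from the labels. All mice shared the strain and muscle, and the methods give young adult C57BL/6J males. The mice had isoflurane and the analgesic buprenorphine ahead of the operation, and the labels name no transgene. The paper speaks of biologically independent samples and of several mice per time point, while the labels tie no sample to an animal. The p-values set each difference against the spread between these samples. For each gene this spread was estimated over all 8 groups, so a standard error does not show the spread within a single time point.

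Proteins marked with ubiquitin chains are broken down by the proteasome, a barrel of stacked alpha and beta rings capped by a regulatory particle. The regulatory particle binds the chain, removes it and uses ATP to unfold the protein and thread it into the barrel, where the beta subunits cut it. In skeletal muscle this route removes myofibrillar proteins during atrophy, after ligases such as those of the MuRF1 and Atrogin-1 type have marked them.

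FPKM, the fragments per kilobase of exon and per total of the sample, allowed levels to be compared between genes, while its level between samples also depends on the scaling given below. The depth recovered from the values was 14199916 to 17561594 fragments per sample. The least covered member was Psmg3, with 10 to 46 fragments per sample. Skeletal muscle markers dominated, with the summed FPKM of Acta1, Ckm, Myh4, Tnnt3 and Mb between 19522 and 35690, whereas none of the 5 retina markers passed the filter on low values and none exceeded an FPKM of 0.163 in any sample. Retina was checked because the extraction text of the labels speaks of retinas. Sample a of 3 d stood apart from samples b, c and d of that day, at -19.4 on the first principal component against 0.752 to 6.25. It was the highest sample of 3 d for all 31 ring and regulatory members. Without it, 26 of these 31 still had their highest group mean at 3 d, as against 28 with it, with Psmb6 then highest at 7 d and Psmc2 at 5 d. In bulk tissue, fewer cells of a type and less RNA per cell cannot be told apart.

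Each time point was compared with 0 d on log2(FPKM + 1) with limma, and a gene was called when its p, adjusted by Benjamini-Hochberg, was under 0.05 and its change reached 1.5-fold. Fold changes on this scale understate those of genes with low FPKM. Genes in general moved upwards on the deposited scale. Among genes whose mean FPKM was 1 or more, the median log2 fold change at 1, 3, 5, 7, 14, 21 and 28 d was 0.12, 0.21, 0.30, 0.31, 0.31, 0.23 and 0.29. The mitochondrial genome took 14.5% to 18.2% of the fragments at 0 d and 6.70% to 18.2% over all samples. Median-ratio scaling, which divides each sample by the median ratio of its genes to their geometric means over all samples, brought the median of these genes to between -0.03 and 0.03 at every time point, and values on this scale are also given.

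All 31 genes of the proteasome core and of its regulatory particle were called higher at 3 d. Of these, 28 had their highest group mean at 3 d (29 had their highest change then after median-ratio scaling). At 1, 3, 5, 7, 14, 21 and 28 d, 18, 34, 37, 35, 30, 27 and 25 of the 40 members were called higher. Over all genes tested, the shares called higher at these times were 6.34%, 13.2%, 14.9%, 15.4%, 14.6%, 11.8% and 14.2%. No member was called lower by limma at any time (1 without the fold threshold, Psme1 at 3 d), where 2.49%, 6.03%, 3.86%, 4.1%, 3.83%, 3.93% and 4.1% of all genes were. The median log2 fold change of the members began at 0.53, reached 1.42 at 3 d and then read 1.07, 1.01, 0.89, 0.79 and 0.76.

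After median-ratio scaling, 9, 33, 23, 22, 15, 15 and 14 members were called higher at the same times, against 4.14%, 9.02%, 6.71%, 7.15%, 6.57%, 6.44% and 6.58% of all genes. One member, Psme1, was then called lower at 3 d and none at the other times, against 4.68%, 9.17%, 7.69%, 7.93%, 7.55%, 7.16% and 8.12% of all genes. The median of the members was 0.35, 1.20, 0.68, 0.64, 0.49, 0.49 and 0.39 on this scale. Without sample a of 3 d, the deposited values gave 34 members called higher at 3 d and a median of 1.33. The count at 3 d thus moved little with the scaling or with this sample, while the counts from 14 d on fell to 15 or fewer.

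**Figure D1:**
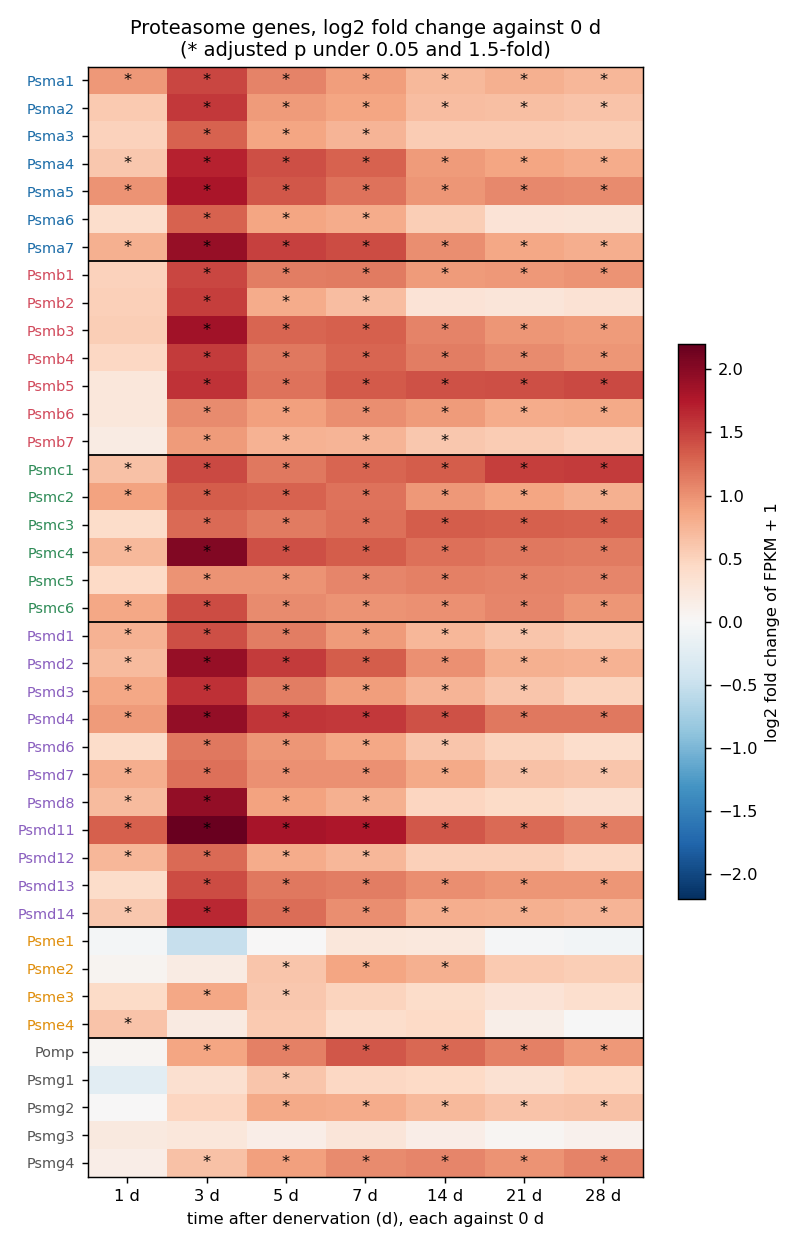
Log2 fold change of FPKM + 1 against 0 d for the 40 proteasome genes (rows, ordered by subcomplex and separated by lines) at 7 time points (columns), with red for higher and blue for lower and a star for genes called. The column of 3 d is the darkest for the Psma, Psmb and Psmd genes, with 34 of 40 genes called, while the Psme and assembly rows are paler.

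The alpha ring forms the gate of the barrel. Its 7 genes were all called higher at 3 d, 5 d and 7 d, and 5 of them still at 14, 21 and 28 d (7, 4, 3, 1, 1 and 1 at these times after median-ratio scaling). Their median log2 fold change was 1.56 at 3 d and 0.73 at 28 d (1.33 and 0.36 after median-ratio scaling). The group mean of every Psma gene was highest at 3 d.

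Psma7, on chromosome 2 (GRCm38, 180036374 to 180042433, minus strand), had the largest alpha-ring change over 3, 5 and 7 d. Its FPKM was 35.2, 34.2, 34.5 and 33.8 in the samples of 0 d and 160.1, 127.8, 119.6 and 127.6 in those of 3 d. The groups did not overlap, and their means were 34.4 ± 0.596 and 133.8 ± 17.97 (SD, n = 4), a log2 fold change of 1.92 ± 0.07 (SE, adjusted p from limma 4.38e-18). At 28 d the 4 samples lay at 63.2, 56.9, 59.0 and 62.4, below every sample of 3 d and above every sample of 0 d. After median-ratio scaling the change of Psma7 was 1.69 at 3 d and 0.42 at 28 d, the second not called. Psma3 had the smallest mean change over 3, 5 and 7 d in the ring. It lay at 39.7, 33.9, 31.5 and 34.8 at 0 d and at 101.7, 71.9, 81.4 and 95.2 at 3 d, a log2 fold change of 1.29 ± 0.08. Its 28 d samples, at 49.6 to 53.3, were above those of 0 d but did not reach the 1.5-fold threshold (0.55 ± 0.08). After median-ratio scaling the 28 d change of Psma3 was 0.17 (adjusted p from limma 0.318). The most abundant alpha gene was Psma6 at every time, with mean FPKM of 96.9 at 0 d, 239.3 at 3 d and 118.6 at 28 d.

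The beta ring carries the cutting sites. None of its 7 genes was called at 1 d, all 7 were called higher at 3, 5 and 7 d, and 6, 5 and 5 were called at 14, 21 and 28 d. After median-ratio scaling, 7, 4, 5, 3, 4 and 3 were called from 3 d on. The median log2 fold change was 0.46 at 1 d, 1.53 at 3 d and 0.94 at 28 d, and after median-ratio scaling 0.27, 1.30 and 0.56. At 3 d against 1 d all 7 were called higher.

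Psmb5, which holds the chymotrypsin-like site, lies on chromosome 14 (54614119 to 54618022, minus strand). Its FPKM was 35.9, 36.6, 34.1 and 29.2 at 0 d and 37.8, 38.7, 39.8 and 44.9 at 1 d. It was 118.1, 104.5, 91.9 and 102.4 at 3 d, and at 28 d still 95.3, 94.3, 97.8 and 89.7. The 1 d samples lay just above those of 0 d, and the samples of 3 d and 28 d overlapped each other far above both. The log2 fold change was 0.24 ± 0.09 at 1 d, 1.59 ± 0.09 at 3 d (adjusted p from limma 1.21e-14) and 1.45 ± 0.09 at 28 d (1.26e-13). The direct comparison of 28 d with 3 d gave -0.14 ± 0.09 (adjusted p from limma 0.255). After median-ratio scaling the changes of Psmb5 from 0 d were 0.061 at 1 d, 1.36 at 3 d and 1.08 at 28 d.

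Psmb6, the caspase-like subunit on chromosome 11 (70525367 to 70527858, plus strand), had FPKM of 69.1, 65.7, 59.1 and 64.3 at 0 d, 153.8, 119.4, 126.8 and 139.4 at 3 d, and 116.1, 113.7, 117.5 and 117.2 at 28 d. Every 28 d sample lay above 0 d and below 3 d, with log2 fold changes of 1.05 ± 0.07 at 3 d and 0.84 ± 0.07 at 28 d (0.82 and 0.46 after median-ratio scaling, the second not called). Psmb7, the trypsin-like subunit on chromosome 2 (38588036 to 38644087, minus strand), had the smallest beta-ring change over 3, 5 and 7 d. Its samples read 55.8, 49.2, 42.5 and 52.5 at 0 d, 118.7, 83.6, 88.2 and 97.1 at 3 d, and 70.5, 69.6, 76.7 and 67.7 at 28 d. Its log2 fold change was 0.93 ± 0.09 at 3 d and 0.51 ± 0.09 at 28 d, the second under the fold threshold. After median-ratio scaling these read 0.71 and 0.13 (adjusted p from limma 0.531 for the second). The exons of Psmb7 overlap those of Nek6 on the other strand by 405 bases, and strand use is not given in the sources used here. Psmb5, Psmb6 and Psmb7 also have named pseudogenes, so that their reads may be shared with a copy.

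Of the structural beta subunits, Psmb3 had the largest rise. Its FPKM went from 47.5, 42.9, 38.7 and 45.5 at 0 d to 198.3, 143.9, 137.8 and 160.1 at 3 d, a log2 fold change of 1.84 ± 0.09, and its 28 d samples were at 79.6 to 89.3. Psmb2 rose by 1.53 ± 0.09 at 3 d and differed by 0.32 ± 0.09 at 28 d, which was not called and read -0.054 after median-ratio scaling. The ratio of Psmb5 to Psmb2 within a sample does not depend on scaling. It was 0.522 to 0.659 at 0 d, 0.533 to 0.710 at 3 d, 0.841 to 1.10 at 7 d and 1.26 to 1.38 at 28 d. This pair was chosen after its values were seen and is given as a description. The 28 d range lay above every sample of 0 d and 3 d.

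**Figure D2:**
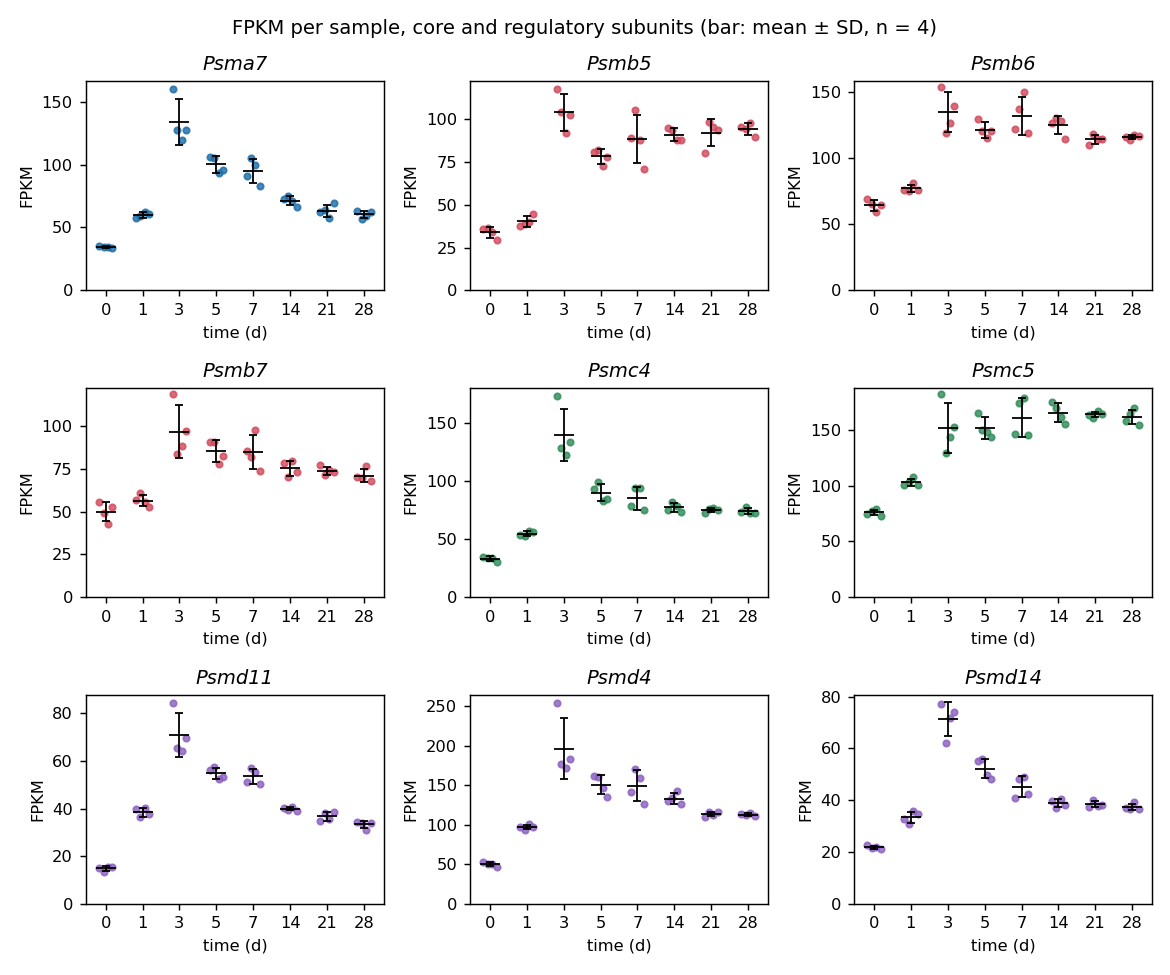
FPKM of 9 core and regulatory genes in each of the 32 samples (points) by time after denervation, with the group mean and SD (black bar, n = 4), each axis starting at 0. Psma7, Psmc4 and Psmd11 are highest at 3 d and come down by 28 d, while Psmc5 stays near its 3 d level and Psmb5 drops to a mean of 78.3 at 5 d and stands at 94.3 at 28 d.

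The 6 ATPases form the ring that unfolds substrates. Of them, 4 were called higher at 1 d and all 6 at every later time. Their median log2 fold change was 0.68 at 1 d, 1.38 at 3 d and 1.11 at 28 d (0.50, 1.15 and 0.74 after median-ratio scaling, with 2, 6 and 5 genes called, and 5 also at 14 and 21 d). They did not share a peak. The highest group mean was at 3 d for Psmc2, Psmc4 and Psmc6, at 14 d for Psmc3 and Psmc5 and at 28 d for Psmc1. After median-ratio scaling the change of Psmc1 was highest at 3 d (1.22, against 1.16 at 28 d) and those of Psmc3 and Psmc5 at 21 d (1.02 and 0.80, against 1.01 and 0.75 at 3 d).

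Psmc4 lies on chromosome 7 (28041707 to 28050101, minus strand). Its FPKM was 34.6, 33.3, 34.1 and 30.0 at 0 d, 173.5, 129.0, 123.0 and 134.2 at 3 d and 73.7, 78.2, 72.2 and 72.5 at 28 d. The 3 groups did not overlap, and the log2 fold change was 2.04 ± 0.08 at 3 d (adjusted p from limma 9.24e-18) and 1.14 ± 0.08 at 28 d. Psmc5, on chromosome 11 (106256154 to 106263120, plus strand), had the smallest ATPase change over 3, 5 and 7 d. It lay at 74.7, 77.7, 78.7 and 73.2 at 0 d, at 182.6, 129.5, 143.7 and 153.2 at 3 d and at 158.5, 164.2, 170.1 and 154.9 at 28 d. Its 28 d samples lay within the range of its 3 d samples, with a difference of 0.10 ± 0.07 (adjusted p from limma 0.341).

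For Psmc1 the mean FPKM was 81.5 ± 1.62 at 0 d, 226.8 ± 34.0 at 3 d and 239.5 ± 9.88 at 28 d (SD, n = 4), a log2 fold change of 1.54 ± 0.07 at 28 d (adjusted p from limma 2.60e-16). Its levels at 28 d and 3 d overlapped and differed by 0.09 ± 0.07 (adjusted p from limma 0.376). Psmc3 stood at 1.24 ± 0.08 at 3 d and 1.30 ± 0.08 at 28 d, with 215 bases of its exons shared with Slc39a13 on the other strand. The ratio of Psmc1 to Psmc4 within a sample, also picked after the values were seen, was 2.34 to 2.75 at 0 d, 1.54 to 1.71 at 3 d and 3.03 to 3.52 at 28 d. The 3 ranges did not overlap.

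The non-ATPase subunits bind, hold and strip the ubiquitin chain. At 1 d 9 of the 11 were called higher, and all 11 were called higher at 3, 5 and 7 d. By 28 d, 6 were called. The median log2 fold change was 0.72 at 1 d, 1.60 at 3 d and 0.61 at 28 d (0.54, 1.38 and 0.23 after median-ratio scaling, with 4, 11 and 3 genes called, and 8 and 6 at 5 and 7 d). All 11 had their highest group mean at 3 d.

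Psmd11, a scaffold subunit of the lid, lies on chromosome 11 (80428615 to 80473248, plus strand) and had the largest change of the 40 members at 3 d. Its FPKM was 15.0, 13.3, 15.6 and 15.5 at 0 d and already 39.7, 36.3, 40.4 and 37.6 at 1 d. At 3 d it was 84.4, 65.6, 64.4 and 69.9, and at 28 d 34.5, 34.1, 31.0 and 34.0. Every sample of the later times lay above 0 d, and the 28 d samples lay below those of 1 d. The log2 fold change was 1.32 ± 0.07 at 1 d (adjusted p from limma 5.58e-15), 2.18 ± 0.07 at 3 d (1.83e-20) and 1.12 ± 0.07 at 28 d (3.83e-14). At 28 d against 7 d, Psmd11 and Psma7 were the members called lower, by -0.66 ± 0.07 and -0.64 ± 0.07.

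Psmd4, the ubiquitin receptor on chromosome 3 (95032694 to 95042614, minus strand), had FPKM of 53.2, 50.1, 50.4 and 46.6 at 0 d, 96.8, 93.9, 100.6 and 96.8 at 1 d, 254.5, 177.6, 171.4 and 182.9 at 3 d and 113.3, 112.2, 115.1 and 111.5 at 28 d. These groups did not overlap, and the log2 fold change was 0.94 ± 0.09 at 1 d, 1.93 ± 0.09 at 3 d and 1.16 ± 0.09 at 28 d. Psmd14, the deubiquitinase of the lid on chromosome 2 (61711694 to 61800376, plus strand), went from 22.6, 21.4, 22.0 and 21.02 at 0 d to 77.2, 61.9, 71.9 and 74.2 at 3 d, and stood at 37.1, 36.6, 39.3 and 36.6 at 28 d. Its log2 fold change was 1.66 ± 0.06 at 3 d and 0.75 ± 0.06 at 28 d (1.44 and 0.38 after median-ratio scaling, the second not called). Without sample a of 3 d, the log2 fold change at 3 d was 1.80 for Psmd4 and 1.62 for Psmd14.

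Psmd12, a lid scaffold subunit, had the smallest non-ATPase change over 3, 5 and 7 d. Its FPKM was 49.05, 50.004, 46.8 and 44.3 at 0 d, 134.0, 104.4, 109.1 and 110.5 at 3 d and 68.1, 64.5, 65.0 and 64.7 at 28 d. The 3 groups did not overlap on the deposited scale, but its change at 28 d (0.46 ± 0.06) was under the fold threshold. After median-ratio scaling the 28 d change of Psmd12 was 0.081 (adjusted p from limma 0.606). Psmd8, also of the lid, had the largest drop of the members from 3 d to 28 d. Its mean FPKM of 80.1 ± 2.98 at 0 d became 130.5 ± 4.99 at 1 d and 311.4 ± 47.5 at 3 d (SD, n = 4). It was back to 148.7 at 5 d, and its 28 d mean was 102.2 ± 6.51. At 28 d it differed from 0 d by 0.35 ± 0.07 (-0.033 after median-ratio scaling), which was not called, and from 3 d by -1.59 ± 0.07 (adjusted p from limma 6.68e-16). Within a sample, Psmd8 stood at 1.85 to 2.19 times the FPKM of Psmd7, another lid subunit, at 3 d, and at 0.909 to 1.28 times at the other 7 time points, a pair chosen after its values were seen.

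Steps in time were tested directly. At 3 d against 1 d, 26 members were called higher and none lower, where 6.63% and 3.93% of all genes were called (28 higher without sample a of 3 d). Those called were 6 of 7 Psma, 7 of 7 Psmb, 3 of 6 Psmc, 9 of 11 Psmd, 0 of 4 Psme and 1 of 5 assembly genes. At 28 d against 7 d, 0 members were called higher (1 without the fold threshold, Psmc1) and 2 lower by limma, against 1.5% and 1.46% of all genes. Without the fold threshold 20 were lower, but the share of all genes at that cut is not given here. With the threshold, 4 were called lower once sample d of 7 d was left out.

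A comparison of 28 d with 3 d was added once the course had been seen. Here limma called 20 members lower and 0 higher (3 without the fold threshold), where 4.54% and 7.46% of all genes were (19 lower without sample a of 3 d). The 20 were 7 of 7 Psma, 10 of 11 Psmd, 2 of 7 Psmb (Psmb2 and Psmb3) and 1 of 6 Psmc (Psmc4). The median log2 fold change was -0.89 for Psma, -0.88 for Psmd, -0.49 for Psmb, -0.20 for Psmc, 0.08 for Psme and 0.09 for the assembly genes. After median-ratio scaling the last 3 read -0.35, -0.06 and -0.05, so that the direction turned for the activators and the assembly genes, and the differences of Psmc1, Psmc3 and Psmc5 were below 0. On that scale 26 members were called lower and 0 higher, against 6.28% and 5.44% of all genes, with 4 of 7 Psmb, 3 of 6 Psmc and 1 of 4 Psme among them.

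**Figure D3:**
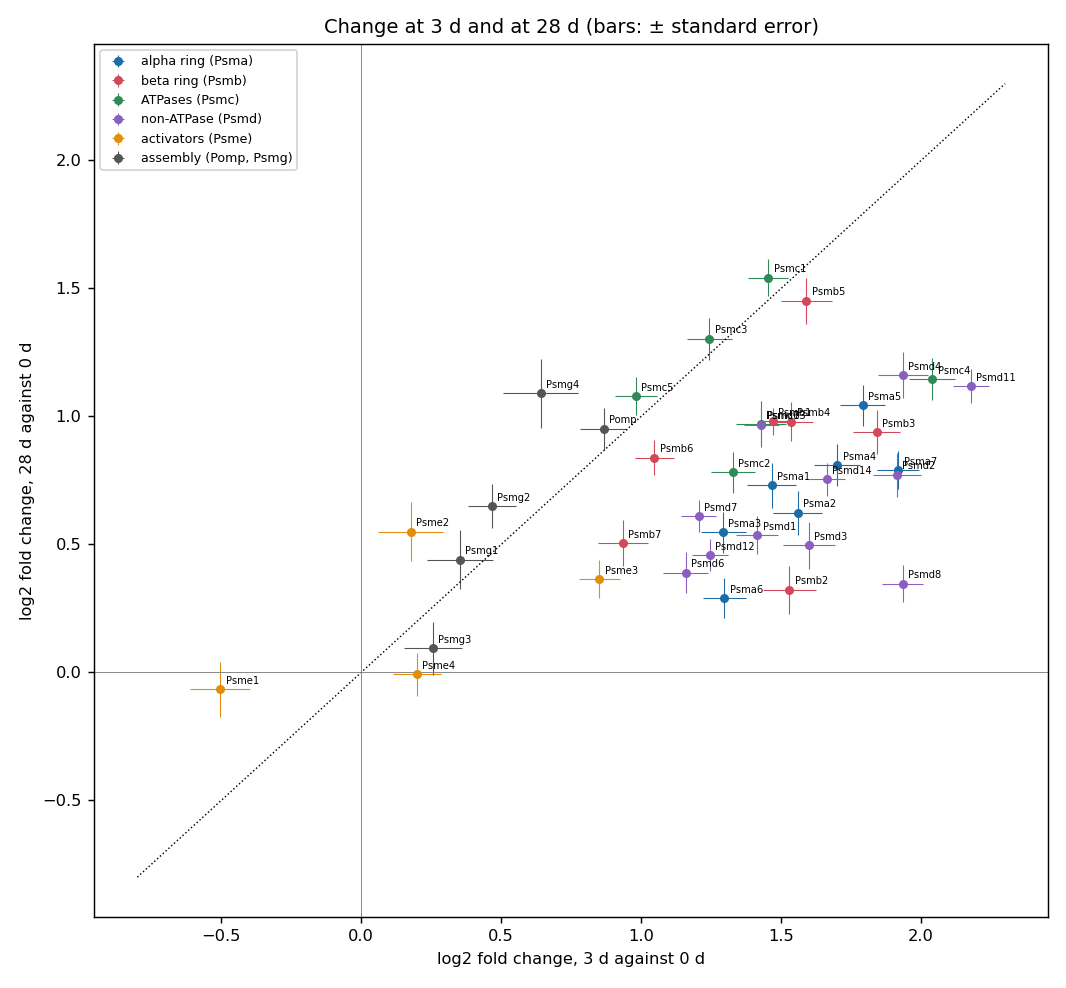
Log2 fold change at 28 d (vertical axis) against that at 3 d (horizontal axis) for the 40 members, each with its standard error and coloured by subcomplex, both relative to the same 0 d samples. The dotted line marks equal values. On the deposited scale shown, Psmc1, Psmc3, Psmc5 and most assembly genes lie on or above it, Psmb5 just below it, and Psmd8 the farthest below it.

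The activators open the barrel without ubiquitin. Psme1 and Psme2 form the interferon-inducible activator ring, Psme3 the nuclear one and Psme4 a large single-chain cap. At 1, 3, 5, 7, 14, 21 and 28 d the median log2 fold change of the activators was 0.24, 0.19, 0.58, 0.44, 0.42, 0.22 and 0.18. After median-ratio scaling it was 0.07, -0.04, 0.20, 0.07, 0.04, -0.08 and -0.19. The number called higher at these times was 1, 1, 2, 1, 1, 0 and 0 of the 4, and after scaling 1 at 3 d alone.

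Psme1 lies on chromosome 14 (55578123 to 55581529, plus strand). Its FPKM was 15.4, 14.6, 13.3 and 11.7 at 0 d and 6.86, 10.9, 11.04 and 9.255 at 3 d. The groups did not overlap, with a log2 fold change of -0.50 ± 0.11 (adjusted p from limma 0.000281) that missed the 1.5-fold threshold and passed it at -0.73 after median-ratio scaling. At 7 d its samples stood at 18.7, 15.6, 14.3 and 17.2 and at 28 d at 14.4, 11.7, 12.1 and 14.1, both overlapping 0 d. Psme2, its partner, had mean FPKM of 11.7 ± 1.30 at 0 d, 13.5 ± 2.67 at 3 d and 22.3 ± 2.36 at 7 d (SD, n = 4), and was called higher at 5, 7 and 14 d. After median-ratio scaling Psme2 was called at none of these times, with 0.52 at 7 d. In sample a of 3 d, Psme1 and Psme2 were at 6.86 and 9.51, below the other samples of 3 d (9.255 to 11.04 and 14.4 to 15.1), and without it the change of Psme1 at 3 d was -0.37.

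Psme3, on chromosome 11 (101316213 to 101323537, plus strand), had its highest group mean at 3 d, as most core genes did. Its FPKM was 20.6, 17.4, 21.3 and 17.96 at 0 d and 34.8, 35.1, 36.7 and 35.6 at 3 d, a log2 fold change of 0.85 ± 0.07 (adjusted p from limma 9.97e-11), and its 28 d samples at 23.8 to 26.1 did not reach the fold threshold. Psme4, also on chromosome 11 (30771726 to 30880361, plus strand), had its highest group mean at 1 d. Its samples were at 34.0, 34.9, 45.2 and 42.4 at 0 d and at 59.5, 61.2, 60.6 and 59.3 at 1 d, without overlap, a log2 fold change of 0.62 ± 0.08 (adjusted p from limma 1.17e-06). Its 5 d samples, at 52.7 to 62.5, overlapped those of 1 d. At 3 d, when the core was highest, Psme4 read 49.3, 38.6, 46.0 and 45.5, overlapping 0 d (0.20 ± 0.08). After median-ratio scaling its 1 d change was 0.44 and no longer called.

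The assembly factors chaperone the rings and are not part of the finished particle. Of the 5, none was called at 1 d, while 2 were at 3 d, 4 at 5 d and 3 on every later day. After median-ratio scaling 1 was called at 3 d, 1 at 5 d and 2 on every later day. In the deposited values of all samples none had its highest group mean at 3 d. Psmg1 and Psmg2 were highest at 5 d, Pomp and Psmg3 at 7 d and Psmg4 at 28 d. Psmg3 was highest at 3 d without sample a of that day (0.610 against 0.592 FPKM at 7 d) and after median-ratio scaling.

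Pomp, the maturation factor that helps complete the barrel, lies on chromosome 5 (147860461 to 147876456, plus strand). Its FPKM was 16.9, 15.3, 13.1 and 15.1 at 0 d and 15.5, 16.1, 15.3 and 15.3 at 1 d. It was 33.2, 26.1, 27.1 and 27.0 at 3 d, 40.5, 39.5, 48.5 and 34.6 at 7 d, and 29.1, 29.5, 31.8 and 29.8 at 28 d. The 1 d samples overlapped those of 0 d, and all samples from 3 d on lay above both. The 14 d samples, at 34.6 to 39.8, overlapped those of 7 d. The log2 fold change was 0.05 ± 0.08 at 1 d, 0.87 ± 0.08 at 3 d, 1.37 ± 0.08 at 7 d (adjusted p from limma 5.62e-14) and 0.95 ± 0.08 at 28 d. Pomp was called higher at each time from 3 d on after median-ratio scaling as well.

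Psmg4 was called higher from 3 d on, with log2 fold changes of 0.64 ± 0.14 at 3 d and 1.09 ± 0.14 at 28 d, and Psmg2 from 5 d on, at 0.83 ± 0.09 at 5 d and 0.65 ± 0.09 at 28 d. Psmg1 was called at 5 d only (0.62 ± 0.12). After median-ratio scaling Psmg4 was called from 7 d on (0.43 at 3 d and 0.54 at 5 d, not called), and Psmg2 (0.46 at 5 d) and Psmg1 (0.27 at 5 d) at no time. Psmg3 was the lowest member. It read 0.404, 0.278, 0.272 and 0.305 at 0 d and 0.451, 0.661, 0.616 and 0.553 at 3 d, and was called at no time by limma on log2(FPKM + 1), where its changes were 0.26 at 3 d and 0.27 at 7 d. Limma-voom on recovered fragments, which adds no pseudocount of this size, called it higher at both times, at 0.84 (adjusted p 0.0430) and 0.85 (0.0363), from 46 fragments per sample at most.

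**Figure D4:**
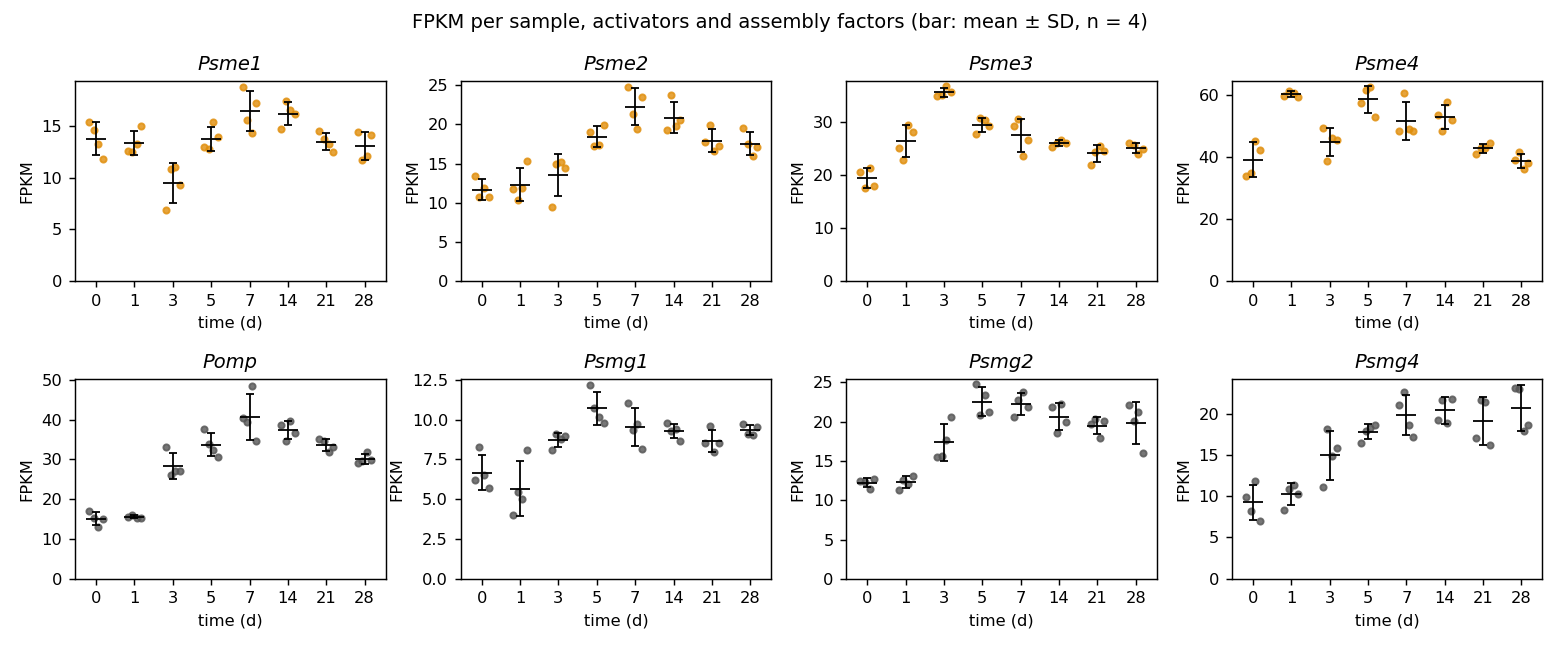
FPKM of the 4 activator genes and of 4 assembly genes in each of the 32 samples (points) by time after denervation, with the group mean and SD (black bar, n = 4), each axis starting at 0. Psme1 is lowest at 3 d, Psme4 is highest at 1 d, and Pomp is highest at 7 d.

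**Figure D5:**
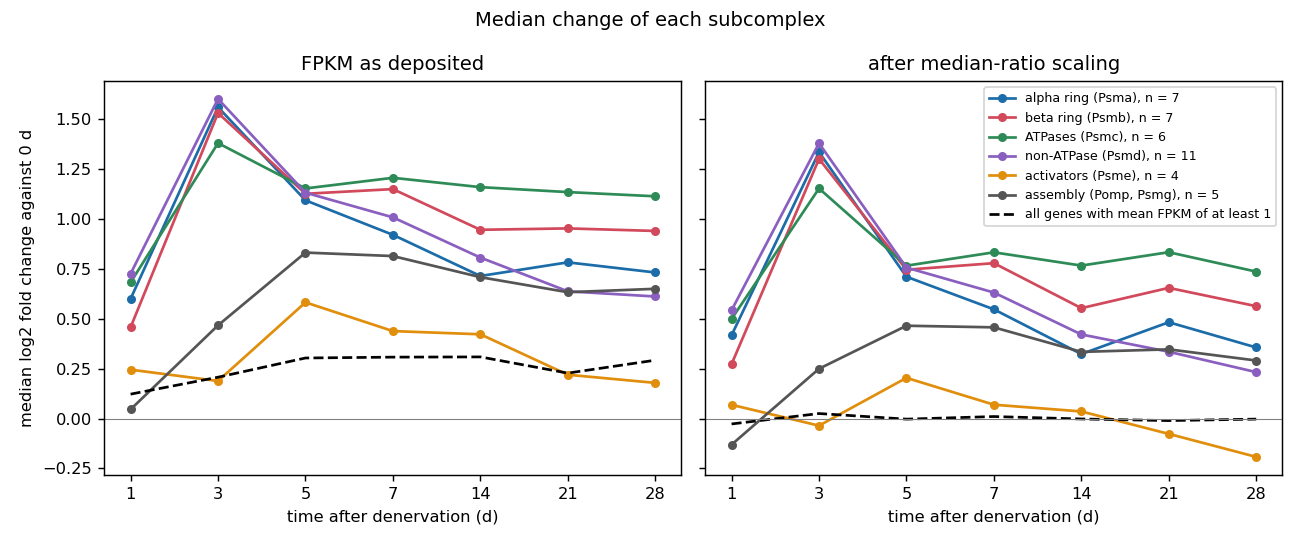
Median log2 fold change against 0 d of each subcomplex (coloured lines) and of all genes with mean FPKM 1 or more (dashed), by time after denervation on an evenly spaced axis, for FPKM as deposited (left) and after median-ratio scaling (right). The ring and regulatory groups are highest at 3 d on both scales, and the Psmc line is the highest at 28 d, at 1.11 and 0.74.

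NFE2L1 and NFE2L2 are transcription factors that bind antioxidant response elements, and NFE2L1 is known to raise proteasome genes when the proteasome is inhibited. Promoter windows from RefSeq (GRCm38.p6), running from 250 bases before to 50 after the start, were found for 33 of the 40 members. The element core TGACNNNGC was searched on both strands and was held by 5 of the 33 genes (15.2%), against 14% of all 27025 genes with a window. CCAAT, on both strands, was held by 11 of the 33 (33.3%), against 41.1% of all. The first share was close to that of all genes and the second was below it. The element did not overlap a CCAAT in the stretches below.

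The stretches upstream of the start are shown for 4 of the 5, from the beta ring, the ATPases and the non-ATPase subunits, to let the element be seen in its setting, with its core in capitals. In the other gene, Psme4, the element spans the start site and is not shown. They run 5′ to 3′ on the strand of the gene. The Psmb5 stretch is at chr14:54618023-54618082 (minus), that of Psmb6 at chr11:70525308-70525356 (plus), that of Psmc6 at chr14:45329574-45329645 (plus) and that of Psmd12 at chr11:107479278-107479329 (plus). In Psmc6 and Psmd12 the element lies on the other strand, so that its reverse complement is in capitals.
Psmb5: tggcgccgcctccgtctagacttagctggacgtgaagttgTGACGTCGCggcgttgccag
Psmb6: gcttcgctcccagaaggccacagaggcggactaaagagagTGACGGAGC
Psmc6: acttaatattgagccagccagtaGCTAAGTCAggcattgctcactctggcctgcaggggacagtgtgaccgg
Psmd12: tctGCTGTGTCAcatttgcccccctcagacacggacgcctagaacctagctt
The first base of the element lies at -47 in Psmb5, -9 in Psmb6, -227 in Psmc6 and -247 in Psmd12, counted from the start site. The log2 fold changes of these genes at 3 d were 1.59, 1.05, 1.43 and 1.25, within the range from -0.50 (Psme1) to 2.18 (Psmd11) of members whose window lacked it.

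Of the 8 known regulators of proteasome genes examined, 5, 7, 4, 5, 3, 2 and 3 were called higher over the 7 times (4, 3, 3, 2, 1, 1 and 1 after median-ratio scaling). Nfe2l2 was called at every time, with a log2 fold change of 1.40 at 1 d and 0.98 at 28 d, and after median-ratio scaling at every time but 14 d (0.58). Nfe2l1 read 0.17 at 1 d, was called higher at 3 d (0.74), 5 d (1.06) and 7 d (0.79), and stood at -0.0043 at 28 d, while after scaling only its 5 d change (0.67) was called. Ddi2, the protease that activates NFE2L1, was called higher at 1 d (1.04) and 3 d (0.60), the second not after scaling (0.39). Foxo1 and Foxo3, which drive atrophy genes, were called at 1 d at 1.20 and 1.11, and Vcp, the segregase that hands substrates to the proteasome, was called at all 7 times, with 1.17 at 3 d, but after scaling at 3 d alone (0.94).

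Among 15 other proteasome genes in the table, 14 were tested, of which 3, 2, 5, 5, 4, 5 and 3 were called higher at 1, 3, 5, 7, 14, 21 and 28 d and none lower (3, 2, 2, 3, 1, 3 and 0 higher, and 1 lower at 3 d, after median-ratio scaling). Adrm1, a ubiquitin receptor of the regulatory particle, and Usp14, a deubiquitinase bound to it, were called higher at 3 d, at 1.57 and 1.42. The immunoproteasome genes Psmb8, Psmb9 and Psmb10, which replace the 3 cutting subunits in immune cells, read -0.07, -0.24 and -0.52 at 3 d, and limma on log2(FPKM + 1) called none of the 3 against 0 d at any time on the deposited scale. The mean FPKM of Psmb8 was 0.576 at 0 d and 1.05 to 1.12 from 7 d on, with log2 fold changes of 0.38 to 0.43 that missed the fold threshold. Limma-voom called Psmb8 higher at these 4 times (0.89 to 0.99), Psmb9 higher at 7 d (0.82) and Psmb10 lower at 3 d (-0.60). After median-ratio scaling Psmb10 was also called lower at 3 d, at -0.74.

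The cytosolic chaperonin, another ring complex of many subunits, was set beside the members. All 8 of its genes were called higher from 3 d on, and 1 at 1 d, with a median log2 fold change of 1.08 at 3 d and 0.89 at 28 d (8 and 2 called after median-ratio scaling). At 28 d against 3 d the chaperonin had a median of -0.22 with 0 called by limma, where the members had -0.57 with 20 called. Among 8 ubiquitin and shuttle genes, 4, 4, 5, 4, 3, 2 and 2 were called higher over the 7 times (3, 4, 2, 2, 1, 2 and 1 after median-ratio scaling). Rad23b, a shuttle that brings substrates to the proteasome, was called higher at every time (1.46 at 3 d), and after median-ratio scaling at all times but 14 and 28 d.

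Markers of other cells moved over the same days. Of 5 macrophage and leukocyte markers, 2, 4, 5, 5, 4, 4 and 4 were called higher at the 7 times (2, 4, 5, 4, 4, 4 and 3 after median-ratio scaling). Their summed FPKM was 17.3 to 23.2 at 0 d, 123.2 to 199.9 at 3 d and 48.8 to 54.8 at 28 d, with none at 0 in all samples of a group. Of the 5 muscle markers, 3 were called lower at 3 d and 4 at 28 d, with 1 (Mb) called higher at 28 d (5 lower at 3 d and the same counts at 28 d after median-ratio scaling). Fibroblast markers were called higher for 2 of 4 at 5 d and 1 of 4 at 7 d (1 and 1 after scaling, with 1 lower at 7 d), with summed FPKM of 349.0 to 455.7 at 0 d and 227.9 to 545.7 at 3 d. Of 2 endothelial markers, Cdh5 was called lower at 3 d, the sum going from 53.7 to 62.0 at 0 d to 34.0 to 48.7 at 3 d. After median-ratio scaling 1, 1, 2, 1, 1 and 1 of the 2 were called lower at 3, 5, 7, 14, 21 and 28 d. The part of these cells in the proteasome values was not tested.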

How the data were processed

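GAS muscle RNA of 32 samples in 8 groups of 4 was analysed from FPKM values that the authors deposited, 1 per gene and sample. The submitters' processing notes name CASAVA, HISAT2 2.1.0, DESeq2 and GRCm38 without their roles. The annotation, counter and strand setting are not given in the sources used here. The study's methods describe library preparation from muscle, the labels an extraction from retinas. The columns whose names carry no day were taken as 0 d by elimination. Merged exon lengths of GENCODE release 21 matched 33356 of 33397 genes, and turned 99.3% to 99.4% of values under 200 fragments into whole numbers within 0.05, which gave the depth. Counting error alone is covered by depth.

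From there, log2(FPKM + 1) was fitted with limma 3.58.1 in R 4.3.3 (lmFit, eBayes with a variance trend, all samples in one fit) on the 22071 genes that reached an FPKM of 0.1 in 4 samples or more. Called genes had an adjusted p under 0.05 and 1.5-fold. The exact permutation test of 4 against 4 samples cannot go below 0.0286 (two-sided). Python 3.11.15 with numpy 2.4.6, pandas 2.3.3 and matplotlib 3.10.9 was used otherwise. Alternatives covered median-ratio scaling, TPM, mitochondrial genes left out, a pseudocount of 0.1, no filter, no variance trend, only the 2 groups in the fit, no fold threshold, limma-voom on recovered fragments and each sample left out.

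Members given with sample values were, per subcomplex, those with the largest and smallest mean change over 3, 5 and 7 d, with Psmb5, Psmb6, Psmb7, Psmd4, Psmd14, Psme4 and Pomp. Psmc1, Psmc3, Psmd8, Psme2 and Psmb2 were added after their values were seen. The members and lists were chosen with earlier results of these data known. Paaf1 was not analysed here, and 1 gene of the ubiquitin and shuttle list and 1 list of cell type markers are not reported here.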

Additional observations from a re-analysis of the deposited data

Results flagged for a closer look

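A sample far from the other 3 of its time point was found in 9 of the 136 groups of the members given with sample values, and in 13 of 320 over all 40 members, where chance gives about 1 in 20. At 3 d, sample a stood at 254.5 FPKM for Psmd4 (others 171.4 to 182.9) and at 33.2 for Pomp (others 26.1 to 27.1). Psmd11 was at 31.0 in sample c of 28 d (others 34.0 to 34.5). Psmd12 was at 85.5 in sample c of 1 d (others 76.6 to 77.7), at 88.6 in sample a of 5 d (others 82.2 to 83.0) and at 68.1 in sample a of 28 d (others 64.5 to 65.0). Psme4 was at 60.5 in sample b of 7 d (others 48.3 to 49.0). Psmg3, at few fragments, was at 0.816 in sample d of 1 d (others 0.414 to 0.472) and at 0.910 in sample b of 7 d (others 0.473 to 0.512).

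Changes between time points after denervation were tested directly with limma. From 1 d to 3 d, 26 members were called higher. From 7 d to 28 d, 2 were called lower, and from 3 d to 28 d, 20.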

How the results depend on the processing

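No paired analysis was possible because the columns of the 7 later times carry letters tied to no replicate number of the labels, and the methods have separate mice for each time point. Limma-voom, a pseudocount of 0.1, TPM, no filter, no variance trend and a fit of only the 2 groups kept every count of called members within 1.5 times. The medians at the 7 times moved with TPM to 0.65, 1.61, 1.27, 1.21, 1.10, 0.94 and 0.95, and without mitochondrial genes, from 3 d on, to 1.33, 0.94, 0.88, 0.74, 0.69 and 0.65. Median-ratio scaling moved the counts called higher to 9 at 1 d and to 23, 22, 15, 15 and 14 on the days from 5 to 28 d, and gave 1 called lower at 3 d, as did leaving out mitochondrial genes (1). Without a fold threshold, 32 members were higher at 1 d, 1 was lower at 3 d, 2 were lower at 3 d against 1 d, 1 was higher and 20 were lower at 28 d against 7 d, and 3 were higher at 28 d against 3 d. The shares of all genes without the fold threshold are not given here, so these counts cannot be set against them. Leaving out single samples, the members lower at 28 d against 7 d numbered 2 to 4, with 4 without sample d of 7 d. The cause of these moves was not tested.

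Median-ratio scaling turned the sign of 25 of 400 values, in 16 members and none of them called, Psme3 at 28 d (0.36) among them. For the members given with sample values by the rule, the log2 fold change against 0 d became -0.0052 for Psmb7 at 1 d, -0.13 for Pomp at 1 d, -0.0026 for Psme3 at 28 d, -0.36, -0.12 and -0.15 for Psme1 at 5, 7 and 14 d, -0.030 and -0.16 for Psme4 at 3 and 21 d, and -0.037 and -0.0068 for Psmg3 at 21 and 28 d. At 28 d against 3 d it became -0.050 for Psmc5 and -0.059 for Pomp. With TPM it became 0.070, 0.12 and 0.099 for Psme1 at 1, 21 and 28 d, 0.16 for Psme4 at 28 d and -0.011 for Psmc5 at 28 d against 7 d. Without mitochondrial genes Psme1 was at -0.12 at 5 d. Leaving out samples gave -0.11 to 0.012, -0.065 to 0.055 and -0.089 to 0.031 for Psme1 at 1, 5 and 21 d, -0.070 to 0.065 for Psme4 at 28 d, -0.017 to 0.099 for Pomp at 1 d, -0.034 to 0.062 for Psmc5 at 28 d against 7 d, and, for Psmg3, -0.00065 to 0.076 at 21 d, -0.013 to 0.17 at 28 d and -0.0022 to 0.12 at 3 d against 1 d. Depth limits Psmg3 more than the other members.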
